A study of Mus musculus with 7 samples.

Results

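Eya2, Dlk2, Fam189a2, Erdr1, Relt and Srcin1 are 6 of the 27998 genes counted in oligodendrocyte lineage cells (OLCs) sorted from the adult mouse cortex. They were selected on low UMI levels in ectopic ventral OLCs in earlier results of these same data, so the ratios between conditions are descriptions of the values that chose them and carry no test. The list has no threshold, and every one of the 6 had a row of counts. Control mice were Emx1-Cre:Sox10-GFP-TdTom, in which the Sox10 transgene makes GFP until Cre, active in the dorsal, Emx1-expressing part of the developing forebrain, switches it to TdTom. Their TdTom+ cells are control dOLCs (dorsally derived) and their GFP+ cells control vOLCs (ventrally derived). Ablated mice had the alleles Emx1-Cre and Sox10-GFP-tdTom too, together with Sox10-GFP-DTA, a Sox10 transgene that Cre switches to diphtheria toxin fragment A, and their GFP+ cells are the ectopic vOLCs that occupy cortex in which dorsal cells were ablated. All mice were untreated, of a mixed C57BL/6-B6CBA background and P90 (11-14 weeks) old, the labels say that both sexes were used in the study, and the mice were 4 control and 2 ablated animals. The sample labels give the tissue as motor and cingulate cortex, whereas the methods name the neocortex and the corpus callosum for these adult mice. Each condition was 1 library of pooled cells. Between ectopic vOLCs and each control, condition, mice, their share of each strain in the mixed background, sort and library therefore cannot be told apart, though control vOLCs were sorted on GFP too. Between the controls, which both came from the control mice, origin, sort and library cannot be told apart. Intervals cover counting error only. Where 3 values follow each other, they stand in the order control dOLCs, control vOLCs, ectopic vOLCs.

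The 3 libraries held 5804 control dOLCs, 925 control vOLCs and 2562 ectopic vOLCs after the authors' filter, with a median of 3489.5, 5022 and 5318.5 UMIs (unique molecular identifiers, 1 per captured transcript) per cell. Cells carried the authors' cluster names, from oligodendrocyte precursor cells (OPCs) through committed precursors and newly formed and myelin-forming oligodendrocytes (COP/NFOL/MFOLa, MFOLb) to mature oligodendrocytes (MOL1, MOL2a, MOL2b and MOL5/6a to MOL5/6d). All 4 OPC markers were found in the OPCs of each library, at a summed 5996, 7577 and 5728 UMIs per 1000000 (CPM), and microglia markers summed to at most 3.26 CPM in the OPCs, MOL2 and MOL5/6 of each library. In OPCs, neuron markers summed to 1134, 1310 and 1215 CPM and astrocyte markers to 630, 636 and 692 CPM, and in MOL5/6 to at most 20.0 and 192 CPM. Of all barcodes, 47 occurred in more than 1 library, which touched 86 of the 9291 kept cells. The table had no row for the reporters or the toxin, so the labels could not be checked on them.

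The genes have different jobs. Eya2 is a transcriptional coactivator and phosphatase that works with DNA-binding partners. Dlk2 is a transmembrane protein with EGF-like repeats, a relative of Dlk1, that modulates Notch signalling, a pathway that holds OPCs back from differentiating. Fam189a2 is a membrane protein that binds ITCH-type ubiquitin ligases. Relt is a receptor of the TNF receptor family, Srcin1 (p140Cap) is an adaptor that restrains the kinase Src, and Erdr1 is a gene of the pseudoautosomal region, the stretch that the X and Y chromosomes share.

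On GRCm38, the build the labels name as mm10, Eya2 spans chr2:165595032-165771727 on the plus strand, Dlk2 chr17:46297421-46303271 on the plus strand, Fam189a2 chr19:23972750-24031019 on the minus strand, Relt chr7:100845847-100863446 on the minus strand and Srcin1 chr11:97509340-97576186 on the minus strand, all protein-coding in GENCODE M21. Erdr1 was placed by RefSeq alone, at chrX:170010526-170018797, where it is a transcribed pseudogene. The table of promoters (RefSeq, GRCm38.p6, 250 bases before to 50 after each start) matched 3 of the 6 genes: Dlk2 with 2 starts, Fam189a2 and Relt. These promoters are printed because no others of the 6 genes were matched. Capitals mark CANNTG, the E-box bound by basic helix-loop-helix factors such as the Olig proteins, which reads the same pattern on both strands. The windows are chr17:46297233-46297532 and chr17:46297678-46297977 for Dlk2 (plus strand), chr19:24030970-24031269 for Fam189a2 and chr7:100863364-100863663 for Relt (both minus strand), each written 5′ to 3′ on the strand of the gene.
Dlk2, start 1: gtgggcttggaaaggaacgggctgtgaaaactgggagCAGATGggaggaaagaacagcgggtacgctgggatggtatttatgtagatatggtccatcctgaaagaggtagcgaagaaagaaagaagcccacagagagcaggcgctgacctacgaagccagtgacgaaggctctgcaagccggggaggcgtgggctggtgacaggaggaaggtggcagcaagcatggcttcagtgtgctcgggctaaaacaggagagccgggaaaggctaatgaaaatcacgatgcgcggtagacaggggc
Dlk2, start 2: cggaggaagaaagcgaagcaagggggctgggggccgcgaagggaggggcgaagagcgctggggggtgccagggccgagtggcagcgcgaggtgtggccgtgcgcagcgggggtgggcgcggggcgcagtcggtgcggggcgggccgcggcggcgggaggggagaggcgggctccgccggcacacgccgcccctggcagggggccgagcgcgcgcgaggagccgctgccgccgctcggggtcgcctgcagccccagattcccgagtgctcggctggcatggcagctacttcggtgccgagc
Fam189a2, start 1: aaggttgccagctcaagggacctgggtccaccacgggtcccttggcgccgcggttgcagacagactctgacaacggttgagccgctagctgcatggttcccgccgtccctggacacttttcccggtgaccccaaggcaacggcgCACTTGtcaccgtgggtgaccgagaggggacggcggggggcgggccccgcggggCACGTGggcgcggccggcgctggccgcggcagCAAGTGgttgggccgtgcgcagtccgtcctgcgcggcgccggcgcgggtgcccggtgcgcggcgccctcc
Relt, start 1: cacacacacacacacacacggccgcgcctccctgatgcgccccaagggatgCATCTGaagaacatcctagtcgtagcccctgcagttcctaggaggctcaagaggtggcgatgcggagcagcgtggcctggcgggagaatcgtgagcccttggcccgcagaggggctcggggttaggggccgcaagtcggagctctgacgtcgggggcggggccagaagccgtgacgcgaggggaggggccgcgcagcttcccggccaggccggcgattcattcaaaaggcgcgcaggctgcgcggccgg
Fam189a2 had 3 E-boxes, the first Dlk2 start and Relt had 1 each, and the second Dlk2 start had 0. Of 32817 mouse promoters of the same length, 72.3% held at least 1. The letters ACAAAG, a core of Sox factor sites, were in none of the 4 windows on either strand and in 18.7% of all promoters. GC content was 56% and 78.3% at the Dlk2 starts, 73.7% at Fam189a2 and 68.7% at Relt, against a median of 52.7%. These matches describe letters only.

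Eya2 was almost absent from ectopic vOLCs. In MOL5/6, the 4 subclusters that make up most mature cells (3777 control dOLCs, 561 control vOLCs and 1842 ectopic vOLCs), 720, 143 and 15 UMIs of Eya2 were counted, or 48.5, 49.0 and 1.42 CPM. Both controls had the same level, with a log2 ratio of control vOLCs to control dOLCs of 0.01 (95% interval −0.26 to 0.27). The ectopic value was 34.2-fold lower than in control dOLCs (log2 ratio −5.10, −5.94 to −4.36) and 34.5-fold lower than in control vOLCs (−5.11, −5.98 to −4.34). Among clusters of at least 30 cells, Eya2 was lowest in OPCs in both controls, at 14.5 CPM in control dOLCs and 15.2 CPM in control vOLCs, and highest in MOL5/6d, at 61.0 and 86.1 CPM. OPCs lay within counting error of the next cluster in both controls, and MOL5/6d did so in control dOLCs. In ectopic vOLCs no cluster of at least 30 cells exceeded 3.98 CPM, and no neighbours in the order of clusters differed beyond counting error. Ectopic OPCs had 0 UMIs of Eya2, against 38 in control dOLCs and 6 in control vOLCs. With 3 counts in place of 0 they were 5.80-fold and 6.09-fold lower. Counting error also allows smaller folds, as the upper limit of the log2 ratio to control dOLCs was −2.17. Eya2 was lower beyond the interval in 9 of the 10 clusters that could be compared with control dOLCs and in 7 of 7 compared with control vOLCs.

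Dlk2 had the next largest difference of these genes within MOL5/6. In MOL5/6 it had 590, 104 and 40 UMIs, or 39.8, 35.6 and 3.78 CPM. The ectopic level was 10.5-fold lower than in control dOLCs (log2 ratio −3.39, −3.89 to −2.93) and 9.41-fold lower than in control vOLCs (−3.23, −3.80 to −2.70), while the controls lay within counting error of each other (−0.16, −0.47 to 0.14). Unlike Eya2, Dlk2 was highest in the committed and newly formed cells of the control dOLCs, at 76.2 CPM from 38 UMIs in 76 cells, while MOL5/6b led among the clusters of at least 30 control vOLCs, at 53.1 CPM. The same cluster had 68.8 CPM in 13 control vOLCs and 20.1 CPM, from 3 UMIs, in 22 ectopic vOLCs. OPCs had 14.9, 17.7 and 5.82 CPM, with 7 UMIs in each of the vOLC libraries, and the ratio of ectopic to control vOLCs there was −1.61 (−3.35 to 0.13). In MOL2, the other large mature group, Dlk2 had 165, 36 and 3 UMIs, or 44.7, 29.4 and 1.93 CPM. All 10 clusters with enough UMIs were lower beyond the interval against control dOLCs, and 4 of 8 against control vOLCs.

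Fam189a2 was reduced to a smaller extent. Its 423, 63 and 76 UMIs in MOL5/6 gave 28.5, 21.6 and 7.19 CPM. The ectopic library stood at a log2 ratio of −1.99 (−2.36 to −1.63) with control dOLCs as the reference and −1.59 (−2.09 to −1.08) with control vOLCs, and the controls themselves differed by −0.40 (−0.81 to −0.02). With the subcluster held fixed, the ratio to control dOLCs was −1.07 (−1.86 to −0.26) in MOL5/6a and −1.59 (−2.21 to −0.99) in MOL5/6d. To control vOLCs it was −1.49 (−2.22 to −0.75) in MOL5/6a and −0.83 (−2.49 to 1.51) in MOL5/6d, where that control had 3 UMIs. Fam189a2 was lower beyond the interval in 6 of 10 clusters against control dOLCs and in 2 of 6 against control vOLCs. Among clusters of at least 30 cells, MOL2a had the highest ectopic level, 16.0 CPM, and was also the highest cluster of the control vOLCs, at 42.6 CPM. OPCs held few UMIs, 35, 2 and 3, so no fold is given between the vOLC libraries. The ratio to control dOLCs there, from those 3 UMIs, was −2.42 (−4.76 to −0.75).

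Among clusters of at least 30 cells, Erdr1 was the only one of the 6 that was highest in OPCs in both controls, at 96.4 CPM in control dOLCs (253 UMIs) and 144 CPM in control vOLCs (57 UMIs). A small cluster of cycling OPCs had 172 CPM, from 11 UMIs in 17 control dOLCs, and 106 CPM, from 5 UMIs in 11 ectopic vOLCs. Ectopic OPCs had 32.4 CPM (39 UMIs). This OPC level is a log2 ratio of −1.57 (−2.10 to −1.08) to control dOLCs and −2.15 (−2.78 to −1.54) to control vOLCs. MOL5/6 had 44.6, 56.9 and 9.65 CPM from 662, 166 and 102 UMIs, with ratios of −2.21 (−2.52 to −1.91) and −2.56 (−2.93 to −2.19). Here the controls also differed, control vOLCs lying above control dOLCs by 0.35 (0.10 to 0.60) in MOL5/6 and 0.58 (0.14 to 1.00) in OPCs. Of the MOL5/6 subclusters, MOL5/6b stood apart with 43.2 CPM in ectopic vOLCs against 51.0 CPM in control dOLCs, from 6 UMIs in 42 ectopic cells. Weighting the 4 subclusters alike therefore brought the ratio to control dOLCs to −1.38. A row named Gm21887, which RefSeq lists as another name of Erdr1, had 54, 27 and 8 UMIs in kept cells, so reads of the locus may be split between rows and the level of Erdr1 is uncertain. Strain differences at the locus were not tested. Erdr1 can be read from either sex chromosome. Of kept cells, 5261, 839 and 2367 had a UMI of Xist, which the inactive X chromosome expresses, while 0, 0 and 1 cells had a UMI of the 4 Y-linked genes examined, so male cells were not seen in these libraries.

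**Figure D1:**
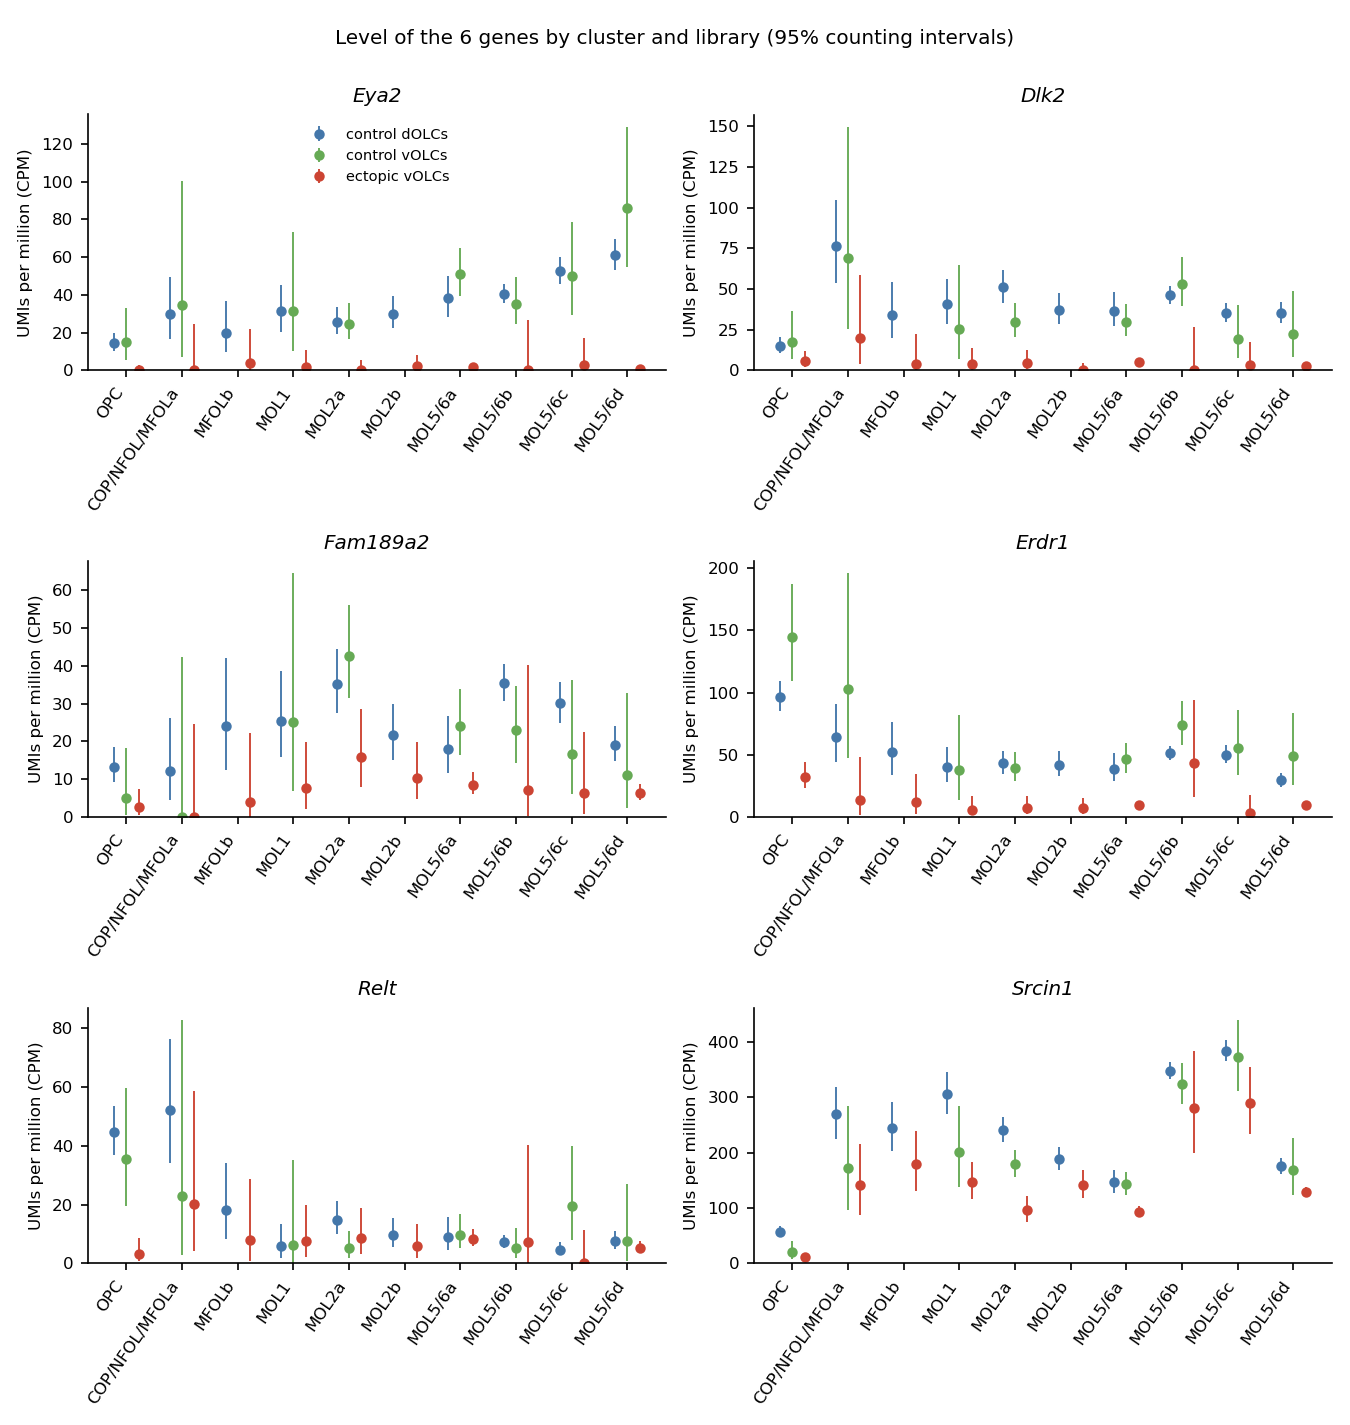
Level of each gene in CPM (y axis, from 0) by cluster (x axis) for control dOLCs (blue), control vOLCs (green) and ectopic vOLCs (red). Points are 1 library each, bars are exact Poisson 95% intervals, and libraries with under 10 cells in a cluster are left out. Ectopic Eya2 was at or below 3.98 CPM in every cluster drawn, and Relt in OPCs lay at 44.6, 35.5 and 3.33 CPM.

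Relt was lowest relative to both controls in OPCs. OPCs had 117, 14 and 4 UMIs, or 44.6, 35.5 and 3.33 CPM. The ectopic level was 13.4-fold lower than in control dOLCs (log2 ratio −3.74, −5.64 to −2.35) and 10.7-fold lower than in control vOLCs (−3.41, −5.47 to −1.74). In MOL5/6 the same libraries had 6.74, 9.25 and 6.34 CPM from 100, 27 and 67 UMIs. The ratios there were −0.09 (−0.56 to 0.37) and −0.55 (−1.21 to 0.16). Within control dOLCs, Relt was 2.73 higher in OPCs than in MOL5/6 on the log2 scale (2.33 to 3.13), and within control vOLCs 1.94 higher (0.89 to 2.92). Within ectopic vOLCs the value was −0.93 (−2.85 to 0.49). Committed and newly formed ectopic cells had 3 UMIs, or 20.1 CPM, against 52.2 CPM from 26 UMIs in control dOLCs (−1.38, −3.74 to 0.33). Control vOLCs of that cluster had 2 UMIs, or 22.9 CPM. In MOL5/6c, control vOLCs had 19.4 CPM of Relt from 7 UMIs and control dOLCs 19 UMIs in 928 cells, a level below the ectopic floor of 9.35 CPM, and the 63 ectopic cells had 0 UMIs.

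Srcin1 had the smallest difference in MOL5/6 after Relt. There it had 4438, 680 and 1287 UMIs, or 299, 233 and 122 CPM. Its ratio was −1.30 (−1.39 to −1.21) to control dOLCs and −0.94 (−1.07 to −0.80) to control vOLCs, with the controls apart by −0.36 (−0.48 to −0.24). The level depended on the subcluster in every library: MOL5/6c had 384, 371 and 290 CPM, MOL5/6b 347, 323 and 281 CPM, MOL5/6d 175, 168 and 129 CPM and MOL5/6a 147, 143 and 93.0 CPM. Libraries differed in their makeup as well. MOL5/6a and MOL5/6d, with the lower levels, held 23.9%, 48.5% and 94.3% of the MOL5/6 cells. With the subcluster held fixed, the ratio to control dOLCs was −0.66 (−0.91 to −0.40) in MOL5/6a, −0.45 (−0.60 to −0.29) in MOL5/6d, −0.40 (−0.72 to −0.10) in MOL5/6c and −0.31 (−0.80 to 0.15) in MOL5/6b. Weighting the 4 alike gave −0.41. Against control vOLCs the ratio was −0.62 (−0.88 to −0.37) in MOL5/6a, −0.39 (−0.82 to 0.08) in MOL5/6d, −0.36 (−0.75 to 0.03) in MOL5/6c and −0.20 (−0.72 to 0.28) in MOL5/6b. Srcin1 was lower beyond the interval in 8 of 10 clusters compared with control dOLCs and in 2 of 8 compared with control vOLCs. Holding the subcluster fixed in the same way left Eya2 at −5.94 (−7.40 to −4.79) in MOL5/6d and −4.29 (−5.57 to −3.20) in MOL5/6a, and Dlk2 at −3.57 (−4.37 to −2.85) and −2.84 (−3.65 to −2.07). MOL5/6c had 1 ectopic UMI of each, with −4.08 (−9.39 to −1.59) for Eya2 and −3.50 (−8.82 to −1.0) for Dlk2. MOL5/6b had 0 of each in 42 cells, which bounds the ratios at −0.91 and −1.09.

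In OPCs, Srcin1 had 150, 8 and 13 UMIs, or 57.1, 20.3 and 10.8 CPM. Ectopic OPCs were lower than those of control dOLCs (−2.40, −3.34 to −1.58), but so were control vOLCs (−1.50, −2.73 to −0.48), and the vOLC libraries did not separate (−0.91, −2.29 to 0.57). All 7 mature oligodendrocyte markers were found in the OPCs of each library, at a summed 10128, 4649 and 4481 CPM, the same order as Srcin1. Their part in the result was not tested. Among OPCs in which these markers took under 1% of UMIs (720, 120 and 329 cells), Srcin1 of the ectopic library stood at −1.66 (−2.64 to −0.80) to control dOLCs, and the controls differed by −0.76 (−2.02 to 0.30). In the same cells Relt stayed at −3.78 (−5.69 to −2.38), from 4 ectopic UMIs, and Erdr1 at −1.58 (−2.11 to −1.08). That limit on OPCs was chosen after the data were seen.

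**Figure D2:**
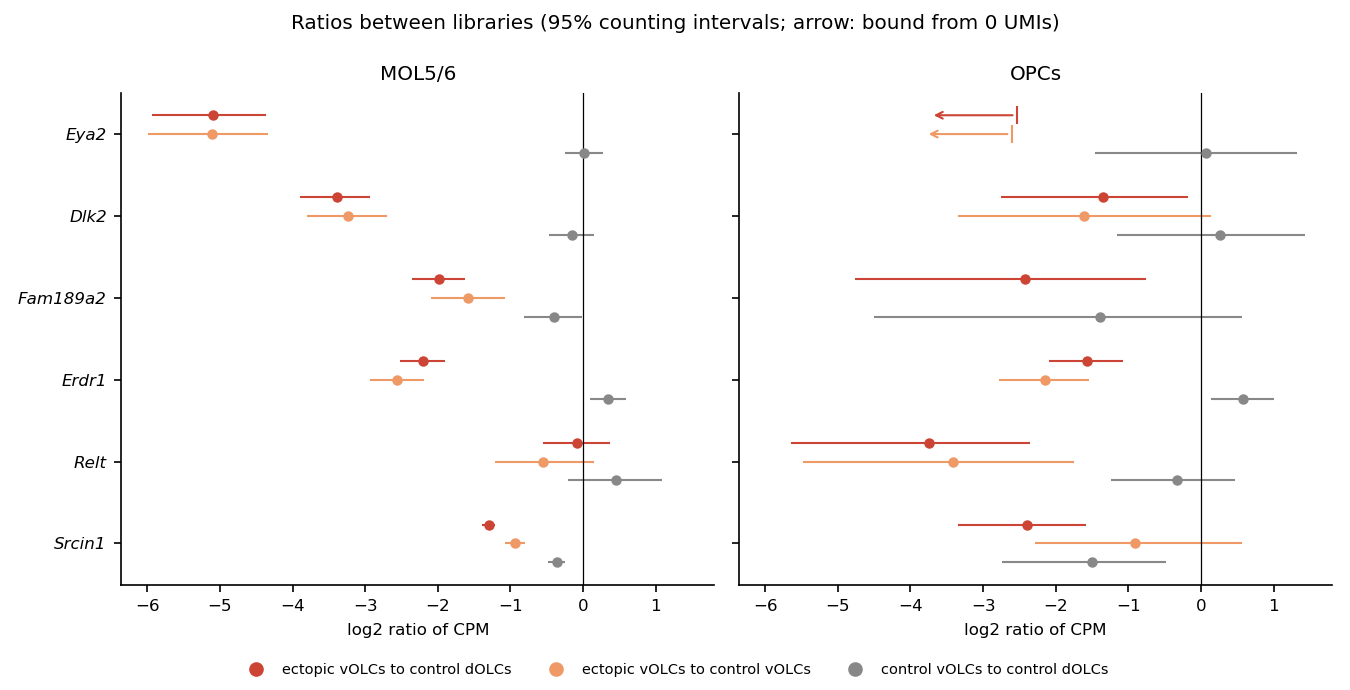
Log2 ratios of CPM between libraries (x axis) for the 6 genes in MOL5/6 (left) and OPCs (right), with conditional exact binomial 95% intervals as bars. Red compares ectopic vOLCs with control dOLCs, orange with control vOLCs, and grey the controls with each other. Arrows are bounds where ectopic OPCs had 0 UMIs of Eya2, and a comparison with 3 or fewer UMIs on both sides is left out. Grey points ran from −0.40 to 0.46 in MOL5/6, and the intervals of Fam189a2, Erdr1 and Srcin1 left out 0.

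The places of the members among all genes follow from their selection on this contrast and are given as a description. A gene entered the comparison with at least 50 UMIs over the 3 libraries and detection in 10% or more of the cells in any library, which 5503 genes passed. Of the 6 members 5 passed, Relt being the exception, and Eya2, Dlk2, Fam189a2 and Erdr1 passed only through the controls. Being at least 2-fold lower than both controls was found for 61 genes (1.11%) and for 4 members, Eya2, Dlk2, Fam189a2 and Erdr1. Since that contrast chose the members, nothing is read from the count. With edgeR's TMM factors 26 genes were lower and 8 higher, and with DESeq2's size factors 26 and 9, against 61 lower and 5 higher (0.0909%) when scaled by total UMIs. When genes below both controls were ordered by their ratio to control dOLCs, the 4 members held places 2 to 5, behind Gm10260, a pseudogene with 1075, 352 and 16 UMIs. The gene that followed them was Gm16223 (−1.96 and −2.51), and Srcin1 was in place 24. Genes detected in fewer cells, such as Slpi and Ndst4, are not in that order. In OPCs 6425 genes passed, of which 31 (0.482%) were at least 2-fold lower than both controls. Relt and Erdr1 were among them, Relt in place 2 and Erdr1 in place 27. Srcin1, in place 5 ahead of Kif21a, missed that fold against control vOLCs, and Eya2, Dlk2 and Fam189a2 did not pass the filter. In OPCs Relt and Srcin1 passed only through the controls, so nothing is read from their places.

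**Figure D3:**
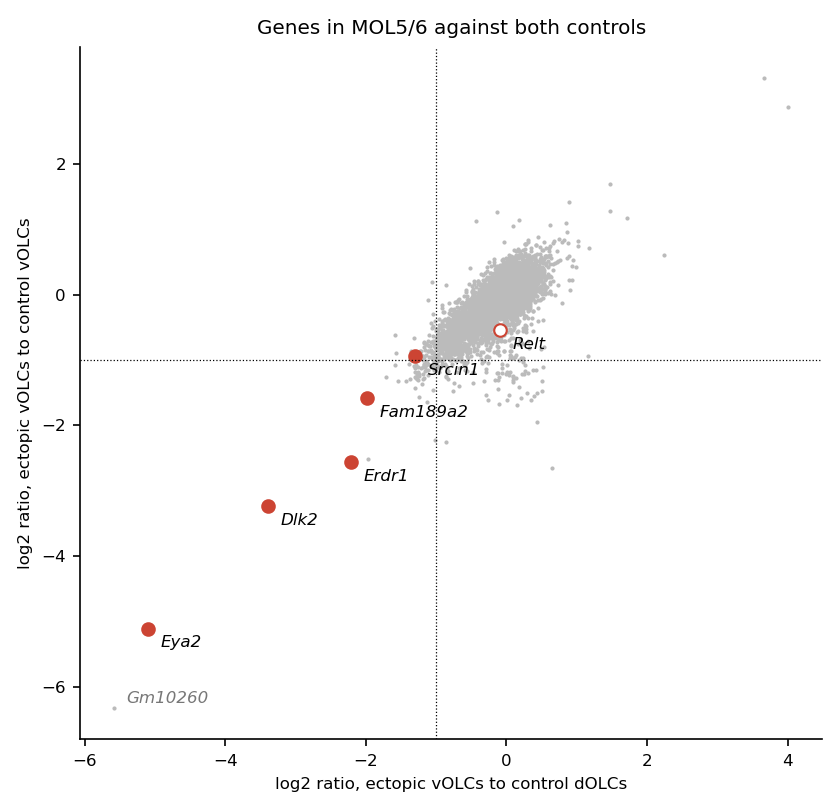
Log2 ratio of the ectopic library to control dOLCs (x axis) and to control vOLCs (y axis) in MOL5/6 for 5503 genes (grey) and the 6 members (red). Relt (open circle) did not pass the filter. Dotted lines mark a 2-fold lower level. Eya2 and Dlk2 lay far from the bulk of genes, at −5.10 and −3.39 on the x axis.

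Shares of cells rest on the same UMIs that chose the members, so they describe the difference again and add no support to it. In MOL5/6, Eya2 was detected in 15.9% (95% Clopper-Pearson interval 14.8 to 17.1), 20.1% (16.9 to 23.7) and 0.814% (0.456 to 1.34) of cells, although ectopic cells were the deepest, with a median of 5478.5 UMIs against 3491 and 5069. For Dlk2 the shares were 13.6%, 16.4% and 2.12%, for Fam189a2 10.4%, 10.2% and 4.07%, and for Erdr1 15.7%, 22.3% and 5.48%. Thinning every cell to 1000 UMIs left Eya2 in 4.69%, 3.74% and 0.109% of cells and Dlk2 in 4.00%, 4.28% and 0.326%. Srcin1, found in 64.5%, 61.7% and 47.4% at full depth, was found in 27.4%, 23.5% and 10.4% after thinning. Relt changed order with depth, from 2.57%, 4.63% and 3.58% to 0.609%, 1.07% and 0.597%. Among OPCs, Relt had a UMI in 12.7%, 11.6% and 1.21% of cells, and Eya2 in 0 of 330 ectopic cells, which at 3 counts of the total allows a share of up to 0.909% of cells with a UMI and does not limit the cells that express it. No sorted cell type was known to lack these genes, so the level that free RNA gives was not measured.

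**Figure D4:**
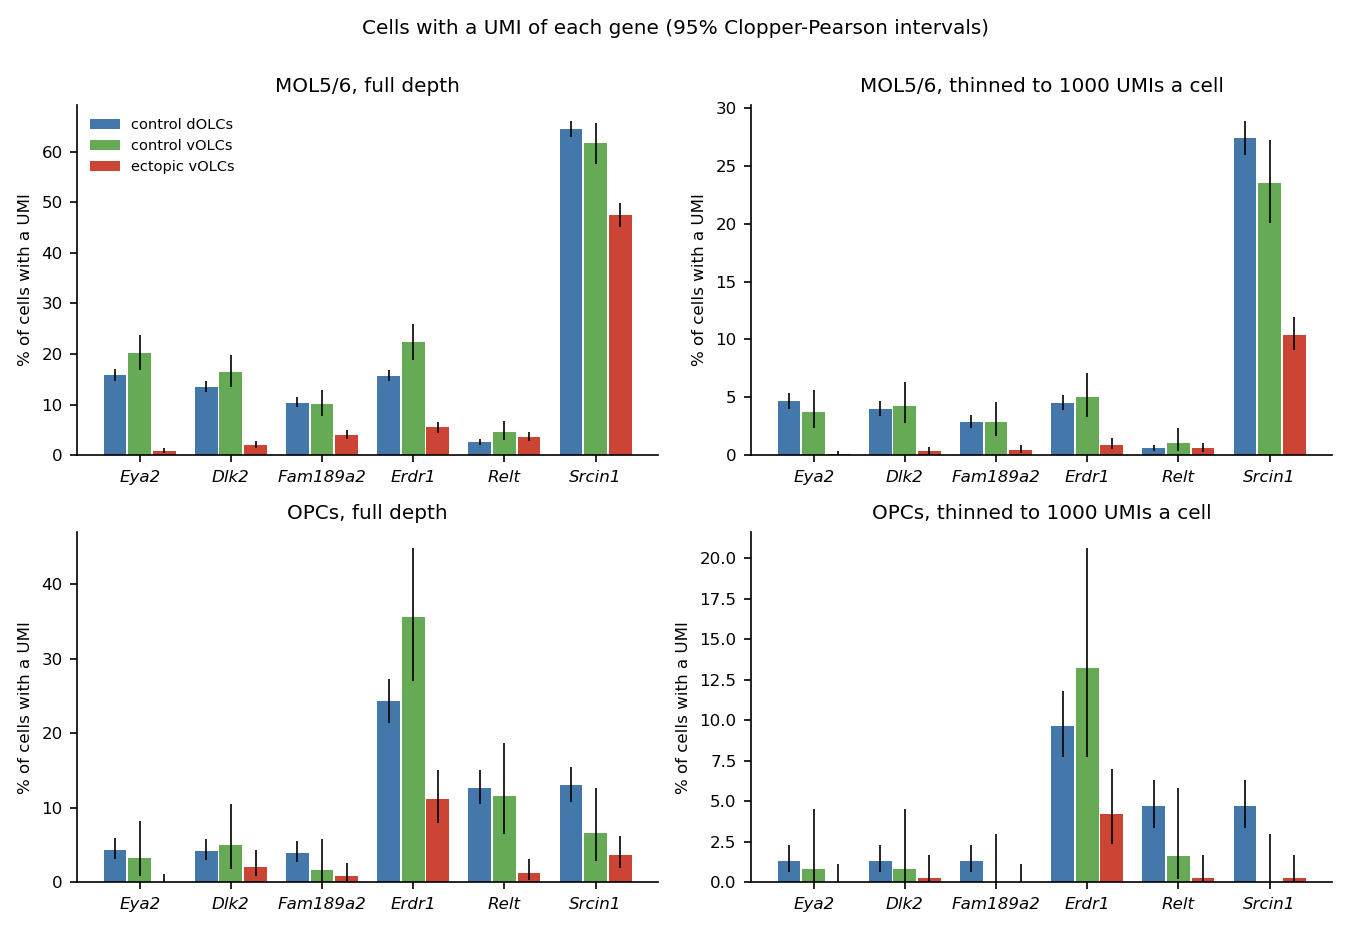
Share of cells with at least 1 UMI (y axis, percent, from 0) of each gene (x axis) in MOL5/6 (top) and OPCs (bottom), at full depth (left) and with each cell thinned to 1000 UMIs (right). Bars are control dOLCs (blue), control vOLCs (green) and ectopic vOLCs (red), with Clopper-Pearson 95% intervals. Ectopic bars of Eya2 were near 0 in every panel, and those of Relt were low in OPCs.

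At least 1 of Eya2, Dlk2, Fam189a2 and Erdr1 was found in 44.9%, 51.9% and 11.9% of MOL5/6 cells at full depth and in 15.3%, 14.6% and 1.85% of thinned cells, and at least 2 of them in 354, 84 and 9 cells at full depth. These are the members at least 2-fold lower than both controls in MOL5/6, so the tally follows from that choice. The 19 UMIs of Eya2 in ectopic vOLCs lay in 19 cells, each with 1. Of these cells 1 also had Dlk2, 7 had Tubb3 (35.9% of all ectopic cells had it) and 0 had a barcode that occurred in another library. Barcodes that the authors' filter had removed (388, 114 and 288) were not among the cells that chose the list, though they came from the same libraries and were deeper, with a median of 10333.5, 9289.5 and 11305 UMIs. In them Eya2 had 31.2, 25.4 and 0.898 CPM and Dlk2 48.3, 35.3 and 2.99 CPM. Fam189a2 had 16.0, 14.3 and 5.09 CPM, Erdr1 45.1, 58.5 and 13.2 CPM and Srcin1 253, 272 and 130 CPM. The removed ectopic barcodes were below both controls for all 5. Relt had 23.1, 9.93 and 5.69 CPM there, a ratio of −2.02 (−2.82 to −1.29) to control dOLCs and −0.80 (−2.02 to 0.52) to control vOLCs.

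Relatives and partners of the members passed the filter on low counts in unequal numbers. Of 11 relatives and partners of Eya2, 0 passed the filter in MOL5/6 and 1 in OPCs. That was Eya1, a paralogue of Eya2, with 125, 208 and 74.9 CPM (log2 −0.74 to control dOLCs and −1.47 to control vOLCs), and over all kept cells it had −1.12 and −1.41. In the Notch list, 1 of 19 genes passed in MOL5/6, the nuclear effector Rbpj (−0.40 and −0.17), and 7 in OPCs, where the receptor Notch1 had 127, 142 and 121 CPM and the target Hes5 477, 618 and 464 CPM. Of 17 genes around Relt, 3 passed in MOL5/6 and 6 in OPCs, among them the paralogue Rell1 (−0.39 and −0.13 in OPCs). Of 9 genes around Fam189a2, 5 passed in each group, with the ubiquitin ligase Itch at −0.53 and −0.36 in MOL5/6. Of 10 genes around Srcin1, 8 passed in each, the kinase Fyn having −0.73 and −0.11 and the adhesion protein vinculin (Vcl) 0.75 and 0.85 in MOL5/6. Of 10 pseudoautosomal and sex-linked genes, 8 were in the table and 2 passed in each group, Xist with −0.12 and 0.14 in MOL5/6 and its antisense gene Tsix with 13.8, 31.2 and 15.6 CPM there. Over all kept cells Eya1 was thus 1 of 36 genes, of 5798 that passed there, at least 2-fold lower than both controls. TMM raised ratios to control dOLCs by 0.18 there, which takes Eya1 short of that fold. In MOL5/6 and OPCs no gene that passed in these 6 lists was at least 2-fold lower than both controls, beside 1.11% and 0.482% of all genes. With so few genes nothing is read from that. Listed genes that did not pass but met that fold were Notch1 in MOL5/6 with 6.06, 5.14 and 2.36 CPM, Nedd4l with 4.11, 3.77 and 1.04 CPM, Traf3 with 2.09, 2.74 and 0.851 CPM, and in OPCs Oxsr1 with 16.8, 25.3 and 5.82 CPM. Their ectopic values rest on 25, 11, 9 and 7 UMIs. List medians in MOL5/6 ran from −0.45 to 0.03 against control dOLCs, beside −0.05 over all 5503 genes, and from −0.43 to 0.00 against control vOLCs, beside −0.02. In OPCs they ran from −0.74 to 0.52, beside 0.07, and from −1.47 to −0.06, beside 0.02.

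Genes beside the members on their chromosomes were examined over all kept cells, within 500 kb and with at least 50 UMIs. Of all 11772 genes with that many UMIs, 225 (1.91%) were at least 2-fold lower than both controls. Of 8 neighbours of Eya2, 0 were, and the nearest of them, Zmynd8, had −0.51 and −0.48. Of 31 neighbours of Dlk2, 3 were: Tjap1, the gene on its left, with 1542, 359 and 450 UMIs (−1.09 and −1.23), and Gm26785 and Srf, which were picked out after their values were seen. Gm26785 had 40, 11 and 7 UMIs (−1.82 and −2.21) and Srf 182, 42 and 55 UMIs (−1.04 and −1.17). TMM raised ratios to control dOLCs over all kept cells by 0.18, which takes Tjap1 and Srf short of that fold. In OPCs alone Tjap1 had 39.2, 43.1 and 40.8 CPM (0.06 and −0.08). Nothing is therefore read from the count of neighbours. Abcc10, which overlaps Dlk2 on the opposite strand, had 139, 28 and 66 UMIs (−0.38 and −0.32). Fam189a2 had 0 of 8 such neighbours, Relt 0 of 12, Srcin1 0 of 20 and Erdr1 0 of 1, which was Mid1 (−0.63 and −0.65).

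**Figure D5:**
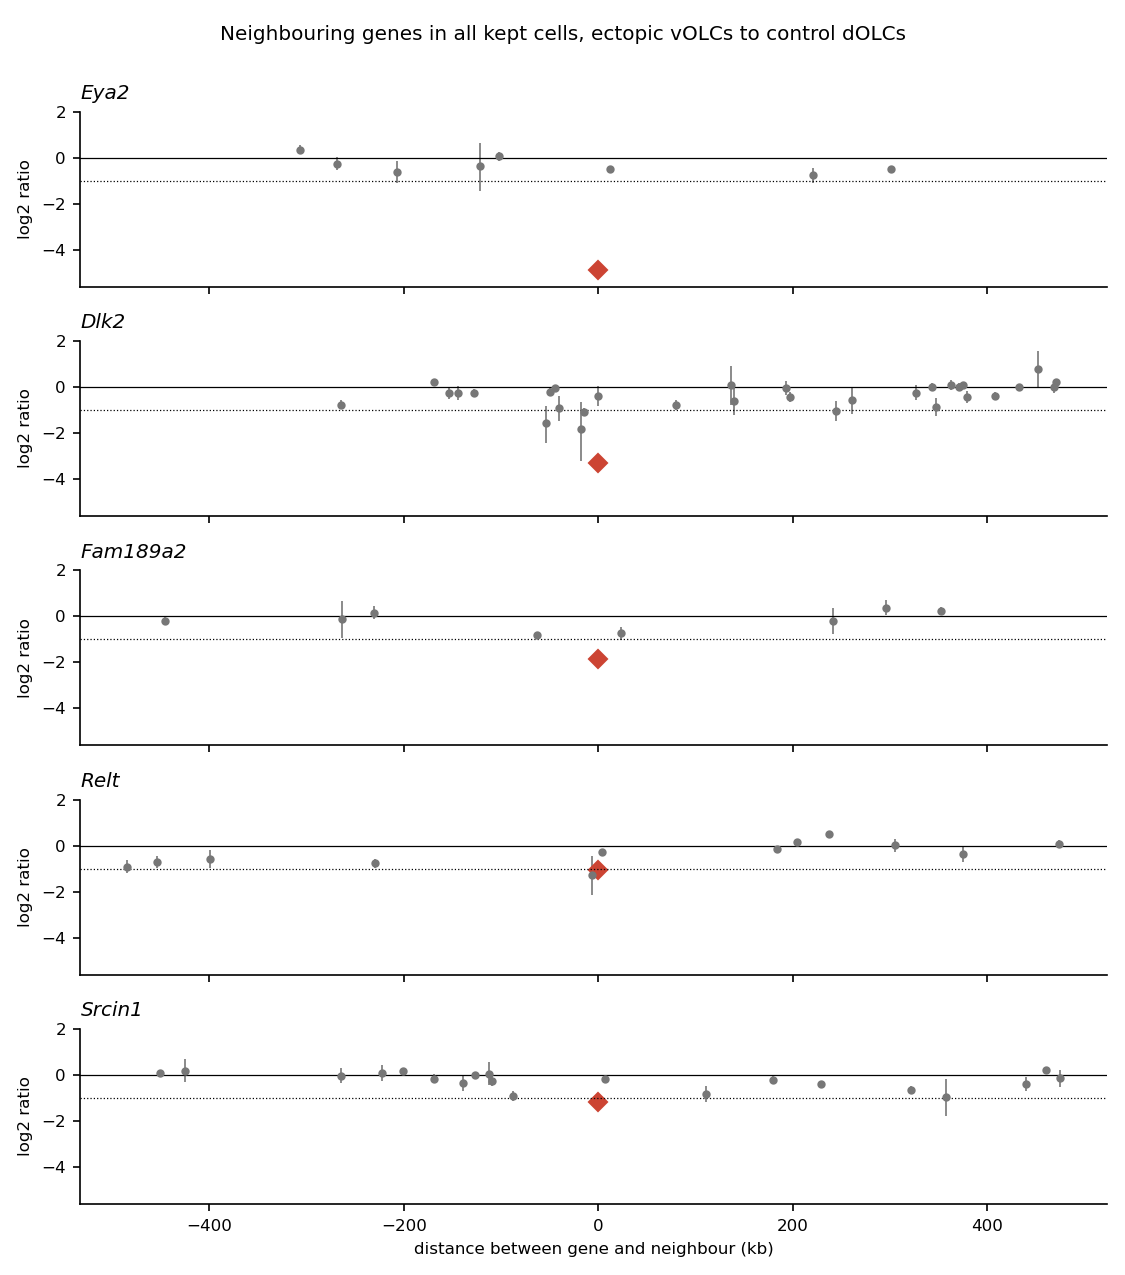
Log2 ratio of the ectopic library to control dOLCs over all kept cells (y axis) for genes within 500 kb of each member, against their distance in kb (x axis, negative upstream of the member on its own strand). Red diamonds are the members, grey points the neighbours with conditional exact binomial 95% intervals, and the dotted line a 2-fold lower level. Tjap1, 14.4 kb from Dlk2, lay at −1.09. Erdr1, with 1 neighbour, is not drawn.

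Over 26 combinations of cluster and library with at least 30 cells, the pattern most like that of Eya2 among 9539 genes was that of Gm10260 (Pearson's r = 0.93), followed by Hddc3 (0.90) and Dlk2 (0.84). Slpi, a protease inhibitor, (0.89) and the neighbour Tjap1 (0.88) came first for Dlk2, followed by Eya2. Slpi had 280, 50 and 13 UMIs in MOL5/6, or 18.9, 17.1 and 1.23 CPM. The endocytic adaptor Pacsin1 (0.86), the sulfotransferase Ndst4 (0.81) and the noncoding RNA Neat1 (0.79) were nearest to Fam189a2. Of these Ndst4 had 216 and 49 UMIs in the MOL5/6 cells of the controls and 1 in ectopic vOLCs. Erdr1 was nearest to PISD (0.87), the lipid kinase Pi4ka (0.87) and Man2a2 (0.82), and PISD had 347, 448 and 165 CPM in OPCs. Srcin1 followed the ion transporter Slc12a2 (0.97), Sytl2 (0.97) and Myrf (0.96), the transcription factor that drives myelin genes. Relt had weaker matches, Scamp2, Epha4 and Znrf1 (each 0.75). Among the members r ran from −0.20 between Relt and Srcin1 to 0.84 between Eya2 and Dlk2. The members were chosen on low ectopic levels, so a high r between them follows in part from that choice. The combinations share 3 libraries and differ in depth, so these values describe the table and carry no p. A difference between the mice in strain background cannot be told apart from the condition for these genes.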

How the data were processed

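Single cells were captured with 10x chemistry. The authors deposited raw UMI counts per gene and barcode, made with Cell Ranger 2.1.1 on mm10 and clustered in Seurat (per the labels), and cell annotations, whose percent of mitochondrial UMIs was computed by the authors. Their filter (over 200 and under 3000 genes, at most 15% mitochondrial UMIs), applied again to 10081 barcodes, left the same 9291 cells. Doublets were not called here. The UMIs of a cell equalled the annotated number in 7651 cells, and differed by at most 53 in the rest; the count table was used.

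UMIs were summed per library and cluster and scaled to 1000000 (Python 3.11.15, numpy 2.4.6, scipy 1.17.1). The 95% intervals were exact Poisson for levels, conditional exact binomial for ratios and Clopper-Pearson for shares. Ratios were checked on simulated Poisson counts. These held no variation between cells, mice or libraries, so that check covers counting error only. Where 1 side had 0 UMIs, 3 counts gave a bound. With 1 library per condition no test was run. Likeness used log2(CPM + 10) and genes with at least 200 UMIs. edgeR 4.0.16 and DESeq2 1.42.0 gave alternative scalings. Symbols matched GENCODE M21 for 26711 of 27998 rows. The 6 genes and all lists were chosen with earlier results of these data known. Genes named were the 6, their 3 likest genes, the next in order, chromosomal neighbours and the partner lists. The 4 samples of newborn nuclei were not analysed here.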

Additional observations from a re-analysis of the deposited data

How the results depend on the processing

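No paired analysis was possible because no condition had more than 1 library. Of 114 recomputed ratios of the ectopic library to a control (control vOLCs where named, otherwise control dOLCs) for the 6 genes, 110 were below 0 and 98 lay within the counting interval of the value reported. The rest above 0 were all Relt in MOL5/6: 0.08 with TMM, 0.10 with DESeq2 size factors, 0.02 as a mean over cells and 0.03 without the 6% of cells with most UMIs. With control vOLCs as the reference in MOL5/6, Fam189a2 had −1.59, Erdr1 −2.56 and Srcin1 −0.94, and in OPCs Erdr1 had −2.15 and Srcin1 −0.91. With cells thinned to 1000 UMIs, Fam189a2 had −2.59 and Srcin1 −1.56 in MOL5/6, and in OPCs Eya2 and Fam189a2 each had a bound of −0.50, from 0 UMIs, and Srcin1 −3.99. Weighting subclusters alike gave −1.38 for Erdr1 and −0.41 for Srcin1. Srcin1 in MOL5/6 also had −1.13 with TMM, −1.11 with DESeq2 size factors, −1.43 as a mean over cells and −1.20 at a 10% mitochondrial limit. TMM raised every MOL5/6 ratio to control dOLCs by 0.17 and size factors by 0.19.

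The number of genes lower than both controls, 61 in MOL5/6, 31 in OPCs and 36 in all kept cells, was 1421, 510 and 701 with no filter beyond 1 UMI, 15, 17 and 8 after thinning, and 4, 3 and 4 at a log2 ratio of −2. TMM gave 26 in MOL5/6 and 15 in all kept cells, and size factors 26 and 14. After thinning, the log2 ratio of the shares of MOL5/6 cells with a UMI, ectopic vOLCs to control dOLCs, went from −4.29 to −5.43 for Eya2, −2.68 to −3.62 for Dlk2, −1.35 to −2.55 for Fam189a2, −1.52 to −2.29 for Erdr1 and −0.44 to −1.39 for Srcin1, and turned from 0.48 to −0.0282 for Relt. Of the 18 genes with the likest patterns, 12 were kept at a pseudocount of 1 CPM and 4 with units of at least 100 cells. Where a cause is not plain from the alternative itself, the cause was not tested. Counting error limits ratios that rest on under 10 UMIs.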
